A study of Mus musculus with 11 samples.

Results

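The Hes and Hey Notch effectors are 8 genes taken from a fixed list of names: Hes1, Hes5, Hes6, Hey1, Hey2, Heyl, Nrarp and Dtx1. They were followed among the 48440 genes of a bulk RNA-seq count table of cultured neural progenitor cells (NPCs) and the 32285 genes of 2 scRNA-seq libraries of the developing neocortex. All 8 are listed in both kinds of data, and 7 of them have a count above 0 in the cultures, where Nrarp is at 0 throughout. Hes1 and Hes5 were also singled out by the study from these same samples, so their directions here are not independent evidence.

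The study removed Syncrip, an RNA-binding protein of the hnRNP family, from the dorsal forebrain of C57BL/6 mice. The conditional knockout (cKO) carries Emx1-Cre and Syncrip fl/fl, with loxP sites around exons 2 to 4, and the other group is labeled wild type (WT). The Emx1 promoter drives Cre in radial glia of the dorsal telencephalon and their descendants, whereas interneurons from the ganglionic eminence (GE), endothelial cells, pericytes and microglia arise outside that lineage. For RNA-seq, NPCs were taken around the lateral ventricles at E14.5 and grown in medium with EGF and bFGF, giving 3 WT and 3 cKO cultures. For scRNA-seq, the dorsal cortex of 1 WT and 1 cKO embryo of the same pregnant mouse was used at E14.5. Nothing in the labels says whether the 3 cultures of a genotype came from separate embryos, so p-values measure the spread between these cultures, which may be technical.

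Notch signaling works between touching cells. A ligand of the Delta or Jagged family on the first cell leads to cleavage of the Notch receptor on its neighbor, and the freed intracellular domain enters the nucleus, where it joins RBPJ and Mastermind proteins and switches on target genes. Hes1 and Hes5 are the best known of these targets in the cortex: both encode basic helix-loop-helix (bHLH) repressors that hold radial glia, also called apical progenitors (APs), in the progenitor state by repressing proneural genes such as Neurog2. Hey1, Hey2 and Heyl encode related repressors, of which Hey2 and Heyl are well known from blood vessels. Hes6 belongs to the same family but favors neuronal differentiation and counteracts Hes1. Nrarp encodes a small ankyrin-repeat protein that feeds back on the Notch intracellular domain, and Dtx1 encodes an E3 ubiquitin ligase that modulates the pathway.

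The promoters of Hes5 and Hey2 are shown because both hold 2 copies of GTGGGAA, the sequence that RBPJ is known to bind, and because both genes changed in the cultures. Each window runs from 250 bases before to 50 bases after the start of the gene, was taken from the RefSeq sequences on GRCm38.p6, and is written 5′ to 3′ on the strand of the gene. Capitals mark GTGGGAA or, where it lies on the other strand, TTCCCAC. The Hes5 window is chr4:154960673-154960972 on the plus strand, and the Hey2 window is chr10:30842734-30843033 on the minus strand.

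Hes5: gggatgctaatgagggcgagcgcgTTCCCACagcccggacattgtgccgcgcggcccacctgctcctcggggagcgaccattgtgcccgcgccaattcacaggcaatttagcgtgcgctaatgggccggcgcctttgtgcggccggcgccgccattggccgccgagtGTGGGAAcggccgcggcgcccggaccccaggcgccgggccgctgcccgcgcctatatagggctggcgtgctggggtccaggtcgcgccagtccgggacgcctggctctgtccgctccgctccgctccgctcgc

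Hey2: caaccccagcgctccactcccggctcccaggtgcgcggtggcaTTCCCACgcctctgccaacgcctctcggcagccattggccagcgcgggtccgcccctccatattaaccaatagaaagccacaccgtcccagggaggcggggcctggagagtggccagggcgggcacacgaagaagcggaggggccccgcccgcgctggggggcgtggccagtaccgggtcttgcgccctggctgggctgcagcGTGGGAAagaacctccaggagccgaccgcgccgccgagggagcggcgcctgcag

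In the Hes5 window the copies begin 226 bases upstream of the start on the reverse strand and 83 bases upstream on the forward strand. In the Hey2 window they begin 207 bases upstream on the reverse strand and 4 bases upstream on the forward strand. Over both strands, 6.38% of the 32851 promoters of this length hold GTGGGAA, and 0.256% hold it at least 2 times. Promoters were matched for 5 of the 8 members: Hes5, Hes6, Hey2, Nrarp and Dtx1. Those of Nrarp and Dtx1 and both windows of Hes6 hold no GTGGGAA, which says only that these letters are not in these windows. The N-box CACNAG, a sequence known to be bound by Hes repressors, was found in the second Hes6 window and in the Nrarp and Dtx1 windows, beside 42.5% of all promoters. These matches describe the sequences and are not evidence of binding.

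Totals per culture ran from 16962903 to 22708400 counts. Among all 14432 genes tested, 5701 passed an adjusted p of 0.05 (39.5%, of which 19.7% of genes were higher and 19.8% lower in cKO; edgeR quasi-likelihood test with Benjamini-Hochberg adjustment), so a call by itself does not set a gene apart. The targeted gene could not be used to check the labels: Syncrip reached 77.9 to 79.9 counts-per-million (CPM, a count scaled by the library total) in WT and 81.5 to 90.3 CPM in cKO cultures. Its counts were taken over its whole span, without the bases it shares with Gm20537, while the deletion covers exons 2 to 4. In the APs of the scRNA-seq libraries Syncrip was not lower in cKO either, at 315 CPM in WT and 323 in cKO (log2 ratio 0.038). Of the AP markers, Fabp7 and Nes rose in cKO cultures, Pax6 fell, and Vim (0.23 ± 0.099) and Emx2 (−0.0032 ± 0.099) did not pass. Sox2, which lies wholly inside Sox2ot, is listed at 0 in all 6 cultures. Of the dorsal genes, Emx2 lay between 28.7 and 34.5 CPM. Emx1, whose promoter drives the Cre and which is not on the AP marker list, lay between 0.39 and 1.46 CPM. Transcripts of Y-linked genes were present in WT cultures 1 and 2 and in cKO culture 1 only. In scRNA-seq, 8214 of 8289 WT barcodes and 9560 of 9659 cKO barcodes were kept, 22 barcodes occurred in both libraries, and Y-linked genes had 22062 UMIs in the WT and 211 in the cKO library, so that genotype cannot be told apart from sex or from any other difference between the 2 embryos.

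Hes1 changed most among the members in the cultures. Its level was 4.41, 5.24 and 5.09 CPM in WT cultures 1 to 3 and 31.3, 36.6 and 37.3 CPM in cKO cultures 1 to 3. Every cKO culture was far above every WT culture. The mean went from 4.91 ± 0.44 to 35.1 ± 3.26 CPM (SD, n = 3 each), a log2 fold change of 2.84 ± 0.13 (SE; adjusted p = 2.54e-09, edgeR), or 7.15-fold. By size of change in either direction Hes1 was number 75 of the 14432 genes tested. The gene lies on chromosome 16, from 30064384 to 30067796 on the plus strand of mm10, and shares no bases with another annotated gene.

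Hes5, the other main repressor of radial glia, gave 75.6, 93.2 and 62.2 CPM in WT and 118, 110 and 96.1 CPM in cKO cultures. The genotypes did not overlap, although the lowest cKO culture lay just above the highest WT culture. The rise was 0.49 ± 0.12 on the log2 scale, or 1.41-fold (adjusted p = 0.00618, edgeR). Without WT culture 1 the change was 0.47 and no longer passed (adjusted p = 0.13, edgeR).

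Hey1 and Hey2 also rose. Hey1 gave 62.1, 65.9 and 55.5 CPM in WT and 83.6, 84.3 and 82.5 CPM in cKO cultures. The cKO cultures lay close together and above all WT cultures, with a log2 fold change of 0.45 ± 0.084 (adjusted p = 0.000903, edgeR). Hey2 gave 8.24, 7.35 and 4.95 CPM in WT and 19.6, 16.4 and 14.8 CPM in cKO cultures. The genotypes were again separate, with a log2 fold change of 1.31 ± 0.18, or 2.47-fold (adjusted p = 8.01e-05, edgeR).

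Dtx1 was the only member that fell. It gave 122, 162 and 143 CPM in WT and 91.6, 110 and 92.5 CPM in cKO cultures. Every cKO culture was below every WT culture, and the log2 fold change was −0.54 ± 0.10 (adjusted p = 0.000991, edgeR), which left 68.7% of the WT level.

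Hes6 did not pass the test. It gave 38.4, 51.3 and 46.8 CPM in WT and 34.3, 42.3 and 37.1 CPM in cKO cultures, and the ranges overlapped. Its log2 difference was −0.26 ± 0.12 (adjusted p = 0.0915, edgeR). The call depended on the setting: without WT culture 1 the difference was −0.38 and passed (adjusted p = 0.00711, edgeR).

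Heyl and Nrarp could not be compared. Heyl had 10, 4 and 10 counts in WT and 8, 14 and 10 counts in cKO cultures, too few for the filter on low counts. When that filter was dropped, its log2 difference was 0.53 ± 0.59 (adjusted p = 0.558, edgeR). Nrarp had no count in any culture.

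In all, 6 of the 8 members were tested and 5 passed, 4 of them higher and 1 lower in cKO, beside 39.5% of all genes tested. The same 5 did not overlap between the genotypes, beside 50.4% of all genes. In bulk samples, fewer cells of a type and less RNA per cell cannot be told apart.

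**Figure D1:**
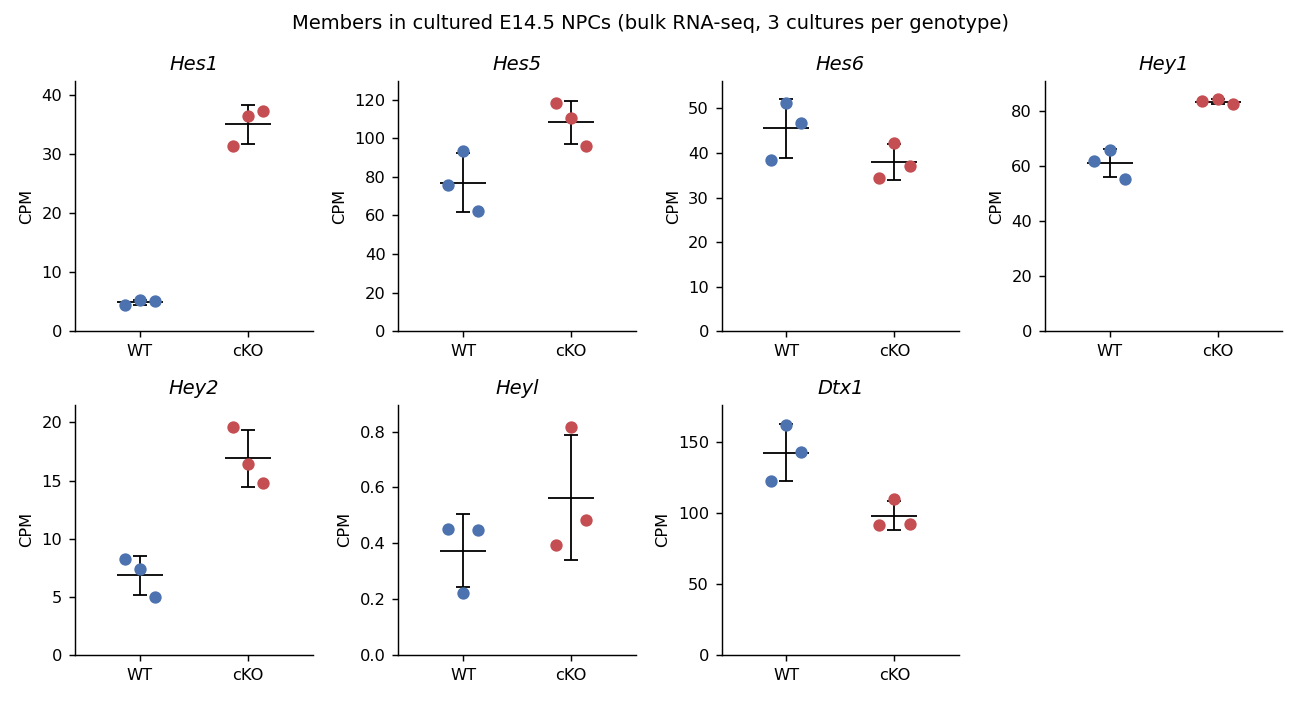
Level of each counted member in CPM (y axis, from 0) in the WT and cKO cultures, with the mean (horizontal mark) and SD (bars) of 3 cultures; each point is 1 culture. Hes1 sits between 4.41 and 5.24 CPM in WT and between 31.3 and 37.3 CPM in cKO cultures, Dtx1 is lower in every cKO culture, and Hes6 and Heyl overlap.

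The way the table was counted bears on Nrarp and Hes5, on the markers Sox2 and Tubb3, and on Syncrip. All 5565 genes that lie wholly inside a gene of the same strand have 0 counts, and so do all 5190 that lie wholly inside genes of the other strand, against 40.4% of the 37685 genes inside no other gene. Reads over bases that 2 genes share were thus left out whatever the strand. Nrarp (chromosome 2, 25180758 to 25183339, plus strand) shares 99.1% of its span with Gm38287 on the other strand, and its 0 says nothing about its expression. The same holds for Sox2 and Tubb3, which lie wholly inside Sox2ot and Gm20388. Hes5 (chromosome 4, 154960923 to 154962371, plus strand) shares 52.2% of its span and 49.2% of its exon bases with Gm20421 on the other strand, so its level is understated. The same bases are left out in both genotypes, and whether the same share of reads is lost was not tested. The remaining members share no bases with another gene. The targeted gene Syncrip shares 27.0% of its span and 67.7% of its exon bases with Gm20537 on the same strand, so its level is understated too.

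Per kilobase of exon, the order in WT cultures was Hes5 with 56.5 CPM per kb, Dtx1 with 27.0, Hes6 with 25.2, Hey1 with 18.7, Hes1 with 2.41, Hey2 with 1.49 and Heyl with 0.073. In cKO cultures it was Hes5 with 79.4 CPM per kb, Hey1 with 25.6, Hes6 with 20.97, Dtx1 with 18.6, Hes1 with 17.2, Hey2 with 3.68 and Heyl with 0.11. In cKO cultures the levels of Hes1 and Dtx1 per kilobase of exon differed by less than the spread between cultures, as did those of Dtx1 and Hes6 in WT cultures. The place of Dtx1 depended on the length used. Per kilobase of the whole gene span, over which the reads were counted, Dtx1 was at 4.49 CPM per kb in WT, below Hes6 with 17.8 and Hey1 with 15.7, and at 3.09 in cKO, below Hes1 with 10.3.

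The other genes of the pathway moved in both directions. Of the 5 ligands, Dll1 (log2 fold change 0.92 ± 0.087), Dll3 (0.67 ± 0.15) and Jag1 (0.63 ± 0.10) rose, and Dll4 and Jag2 did not pass. The 4 receptors did not pass: Notch1 gave 0.15 ± 0.087, Notch2 0.092 ± 0.088, Notch3 0.21 ± 0.092 and Notch4 0.54 ± 0.33. Of the 3 Fringe enzymes, which add sugars to the receptors, Lfng rose by 0.89 ± 0.096 and Mfng fell (−0.43 ± 0.097).

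Of 10 genes of receptor cleavage and endocytosis, 2 rose and 4 fell: Numb (0.52 ± 0.097) and Ncstn (0.32 ± 0.070) were higher, whereas Psenen (−0.51 ± 0.11), Numbl (−0.46 ± 0.11), Aph1a (−0.38 ± 0.10) and Adam17 (−0.28 ± 0.076) were lower. In the nuclear complex, 2 of 6 rose and 1 fell. Maml2 went from 126.2 to 252.5 CPM on average, Kat2b gave 0.48 ± 0.092 and Maml3 gave −0.82 ± 0.23, while Rbpj itself did not pass (0.16 ± 0.077). Of the 5 Groucho corepressor genes in the table, through which Hes proteins repress, Tle2 (1.32 ± 0.13) and Tle4 (0.41 ± 0.086) rose and Aes (−0.50 ± 0.10) fell.

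Of the proneural genes that Hes proteins repress, 2 could be tested, of which 1 rose and 1 fell. Neurog2 was the gene that rose (0.70 ± 0.21), from a mean of 2.90 CPM in WT to 4.71 in cKO. Neurog1, Atoh1, Neurod1 and Neurod4 were too low to test or had no count. Of the 4 Id genes, which encode HLH proteins that block bHLH factors, Id4 (−1.07 ± 0.11), Id2 (−0.91 ± 0.089) and Id1 (−0.55 ± 0.14) fell. Bhlhe40 rose by 1.08 ± 0.077 and Bhlhe41 fell (−0.50 ± 0.095) among 3 tested genes of other Hes-related repressors. The median log2 fold change was 0.63 for the ligands, 0.18 for the receptors and −0.73 for the Id genes, beside 0.0020 over all genes tested.

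Other gene groups moved with the genotype in the same cultures, and their part in these results was not tested. All 11 immediate early genes rose, and their summed level went from 273 to 345 CPM in WT to 2264 to 2656 CPM in cKO cultures. Neuron markers fell in 7 of 9 genes tested (summed level 2076 to 2390 CPM in WT and 2234 to 2315 CPM in cKO, with Tubb3 listed at 0). Astrocyte markers fell in 4 of 5 (3981 to 4332 CPM and 2458 to 2721 CPM, with Gfap also listed at 0). Of 6 oligodendrocyte lineage genes 2 rose and 2 fell (3821 to 4266 CPM and 2831 to 3442 CPM). Of 4 endothelial and mural genes tested 2 fell (43.1 to 51.4 CPM and 24.5 to 34.6 CPM), and the only microglial gene tested rose (0.39 to 1.13 CPM and 1.31 to 2.30 CPM).

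**Figure D2:**
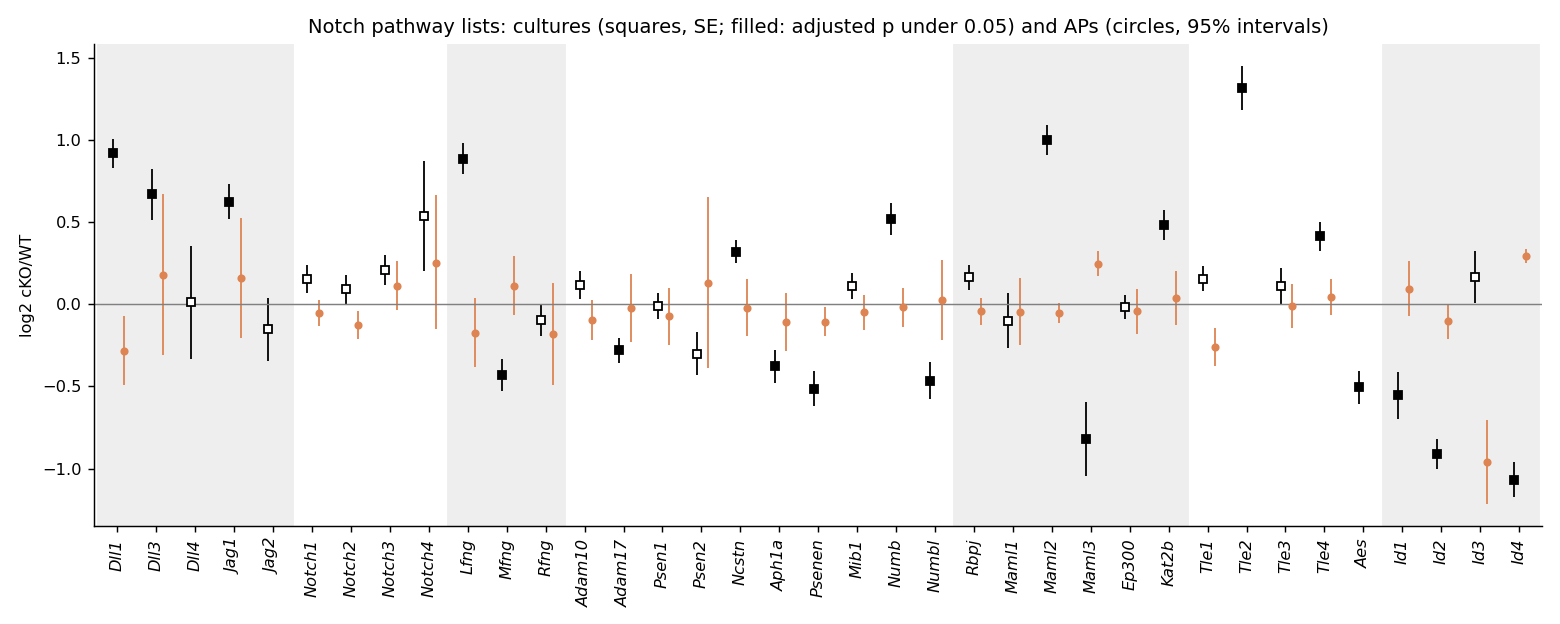
Log2 ratio of cKO to WT (y axis) for tested genes of the Notch pathway lists from ligands to Id proteins (proneural genes not drawn), with squares for cultures (bars: SE; filled where adjusted p is under 0.05) and circles for APs (bars: 95% intervals of counting error, genes with at least 50 UMIs). Shading separates the lists; culture changes such as those of Tle2 (1.32) and Id4 (−1.07) stand out, and most circles lie near 0.

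In scRNA-seq, cells were grouped without the members, so that no class was drawn from their levels. Of 27 clusters, 23 were named from marker genes and 4 stayed unnamed, with 1651 WT and 1959 cKO cells. APs numbered 958 in WT and 1320 in cKO, or 11.7% and 13.8% of cells, with a median of 12535 and 12686 UMIs per cell, and were spread over 3 clusters. Each genotype is 1 embryo, so no test between genotypes was possible, and all intervals are exact 95% intervals that cover counting error only. Levels are CPM from the summed UMIs of the class, which do not depend on gene length.

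Among neural cells Hes1 and Hes5 were highest in APs in both embryos, but only Hes5 reached into intermediate progenitors (IPs), the neurogenic daughters of APs, beyond a few CPM. In WT, Hes1 was at 153 CPM in APs, 3.88 in IPs, 1.47 in migrating neurons and 1.57 in immature neurons. Hes5 was at 195 in WT APs, 20.5 in IPs, 5.66 in migrating neurons and 1.77 in immature neurons. The levels of Hes1 in migrating and immature neurons did not differ beyond counting error.

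Shares of cells with a UMI gave the same order. After every cell was thinned to 5000 UMIs, 40.5% of 781 WT APs had a UMI of Hes1 and 47.2% had one of Hes5 (56.8% and 61.8% of 958 before thinning), and 177 shallower APs were left out. In immature neurons, which should lack both, the shares were 0.661% and 0.882% of 1361 WT cells (2.54% for each of 1499 cells before thinning), at a median depth of 16655 UMIs against 12535 in APs. The share of WT IPs with Hes1 was 1.61% and that with Hes5 9.86% of 497 cells.

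Hes6 followed another course. It was highest in IPs, at 357 CPM in WT, against 130 in migrating neurons, 120 in APs, 105 in GE-derived cells and 61.2 in immature neurons, and 82.3% of thinned WT IPs held a UMI of it. Dtx1 was higher in neurons than in progenitors in both embryos: in WT it was at 5.73 in APs, 15.6 in IPs, 50.9 in migrating neurons and 41.6 in immature neurons.

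Hey1 was at 35.4 CPM in WT APs and 23.9 in migrating neurons, with only 13.6 in the IPs that stand between them. Nrarp, which the cultures could not show, was counted here: WT levels were 51.2 in APs, 29.1 in IPs, 15.5 in migrating neurons and 2.49 in immature neurons. Hey2 was scarce, at 4.49 in WT APs and at most 2.20 in the other 4 classes of neural cells. Among the 5 classes of AP, IP, migrating neuron, immature neuron and GE cells, Hes1, Hes5, Hey1, Hey2 and Nrarp were highest in APs, Hes6 in IPs and Dtx1 in migrating neurons, and the highest class was the same in both embryos for all 7.

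Vessel cells carried a different set. In WT, Hes1 reached 232 CPM in 24 endothelial cells and 244 in 27 pericytes, above its level in APs. Heyl had 3 UMIs in all WT APs but was at 197 CPM in pericytes and 63.3 in endothelial cells. The endothelial cluster, led by Flt1, Cldn5 and Kdr, also held pericyte markers, among them Rgs5 at 923 and Vtn at 327 CPM in WT, and their part in its Heyl and Hey2 levels was not tested. Hey2 was at 73.9 in pericytes and 14.8 in endothelial cells, and Nrarp at about the same level in both, 120 and 123. Hes5 had no UMI in WT endothelial cells or pericytes, which allows up to 3.03 and 10.1 CPM. Microglia held no UMI of Hey1, Hey2 or Heyl in either embryo, which allows up to 9.65 CPM in WT and 9.68 in cKO.

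**Figure D3:**
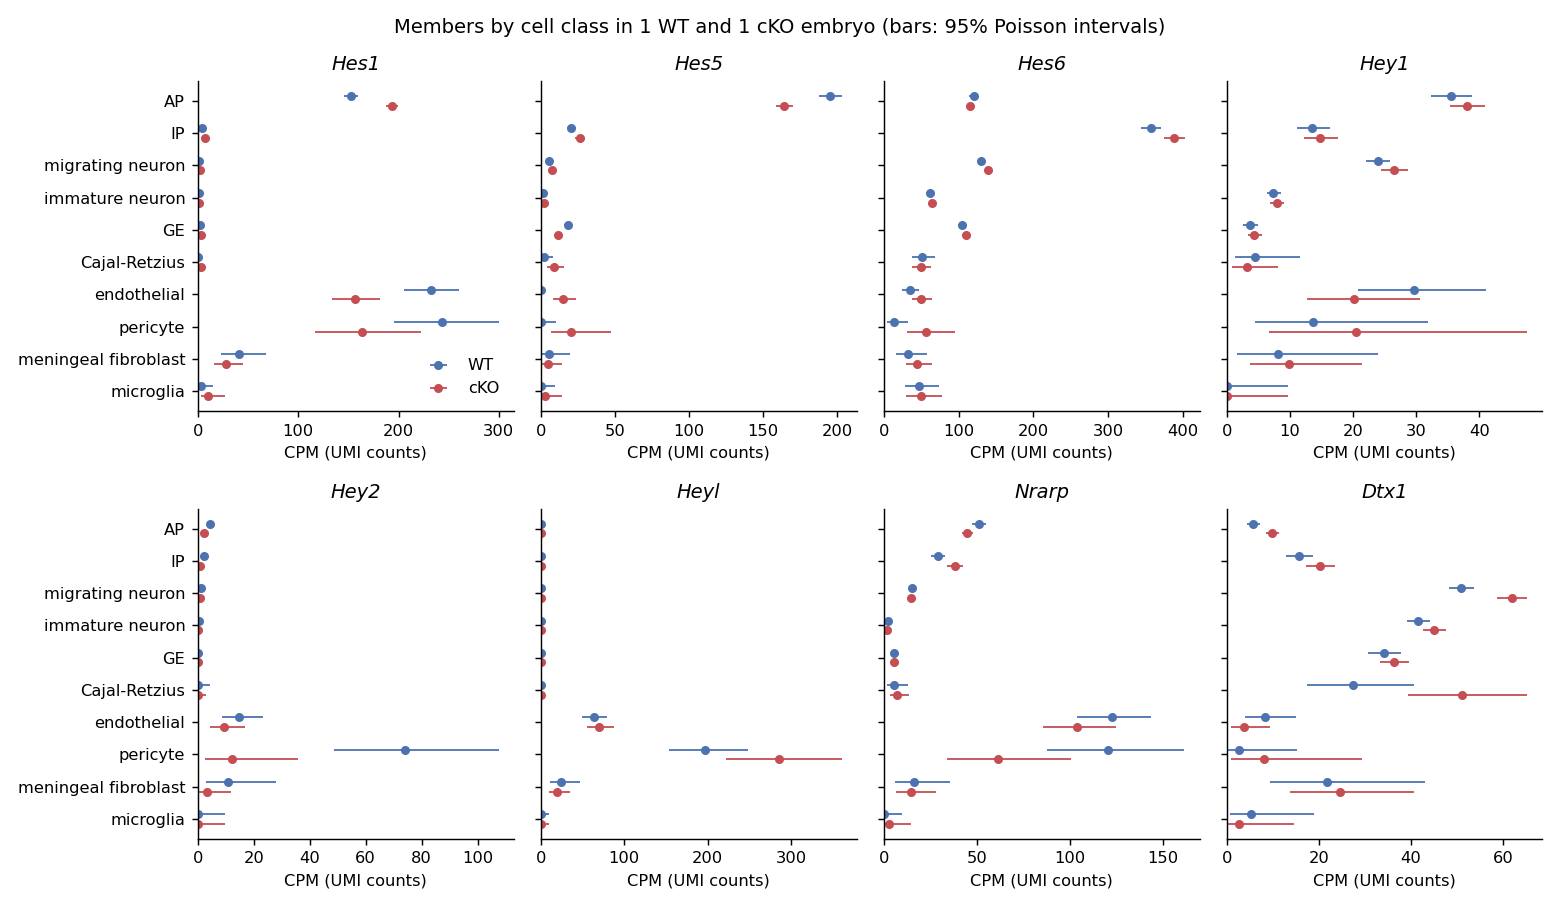
Level of each member in CPM (x axis, from 0, with its own scale in each panel) in 10 cell classes of the WT (blue) and the cKO (red) embryo; bars are 95% Poisson intervals of counting error. Hes1 is high in APs, endothelial cells and pericytes, Hes5 in APs, Hes6 in IPs, Heyl in vessel cells and Dtx1 in neurons.

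Between the embryos, Hes1 and Hes5 went apart in APs. Hes1 was at 153 CPM in WT and 194 in cKO, a log2 ratio of 0.34 (95% interval 0.26 to 0.42). Hes5 was at 195 in WT and 164 in cKO, a log2 ratio of −0.25 (−0.33 to −0.17). Over all cells Hes1 was at 25.2 CPM in WT and 37.7 in cKO (log2 ratio 0.58), which also holds the larger share of APs in the cKO embryo.

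Nrarp went with Hes5, from 51.2 to 44.8 CPM (log2 ratio −0.19, −0.34 to −0.043). Dtx1 was higher in cKO, 9.95 against 5.73 (log2 ratio 0.80, 0.40 to 1.204), and Hey2 lower, with 58 UMIs in WT and 41 in cKO (log2 ratio −1.06, −1.68 to −0.46). For Hes6 (120 and 116) and Hey1 (35.4 and 38.1) the intervals of the log2 ratio held 0, −0.15 to 0.041 and −0.068 to 0.27. Heyl had 3 UMIs in each library.

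Of the 7 members with at least 50 UMIs in APs, Hey2 and Dtx1 were past 1.5-fold, beside 4.94% of the 13009 genes with as many UMIs. Hes1 was not: 91.4% of these genes had a lower ratio, against 9.80% for Hes5, 0.338% for Hey2 and 98.6% for Dtx1. With every cell thinned to 5000 UMIs, the log2 ratio was 0.52 for Hes1, 0.19 for Dtx1, −0.55 for Hey2 and −0.028 for Nrarp. The thinned share of APs with Dtx1 was 2.94% in WT and 3.32% in cKO, with intervals that overlapped, against 6.47% and 11.6% before thinning. Neuron markers also differed in these APs, with a summed level of 830 CPM in WT and 1021 in cKO. Intervals lay above 0 for 9 of 10 genes, and the median log2 ratio was 0.42, beside −0.0038 over the 13009 genes. The part of these markers in the ratios of the members was not tested.

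The 2 larger AP clusters showed the same directions for Hes1 and Hes5. In the cluster led by Tnc and Hes5, Hes1 went from 133 in WT to 186 CPM in cKO and Hes5 from 241 to 200. In the cluster led by mitotic genes such as Aurkb and Plk1, Hes1 went from 183 to 215 and Hes5 from 158 to 126. In the remaining, shallow cluster, with a median of 2788 UMIs per cell, the intervals of both ratios held 0.

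The share of APs with a UMI of Hes1 was also larger in cKO. Among thinned APs Hes1 was found in 40.5% of the 781 WT cells (exact interval 37.0 to 44.0), and in the cKO embryo in 51.7% of 1144 (48.8 to 54.7), or 66.8% of 1320 before thinning, whereas the share with Hes5 was 47.2% and 45.2%. In immature neurons of the cKO embryo the share with Hes1 was 0.196% of 1529 cells. Cells with both genes made up 20.7% of WT APs, with an exact interval (17.9 to 23.8) that held the product of the 2 shares, 19.1%. In cKO APs they made up 26.5%, with an interval (23.9 to 29.1) above the product, 23.4%. Each product comes from the same cells, 781 in WT and 1144 in cKO, and its own error is not in the interval. Whether the 2 embryos differ in the share of cells with both genes, beyond the product, was not tested. Cells with Hes1 and no Hes5 made up 19.7% and 25.3%, and cells with Hes5 and no Hes1 26.5% and 18.7%.

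The cells called G1 went the other way for Hes1. APs were given a phase from S and G2/M genes; 16.3% of WT and 11.9% of cKO APs were called G1, 31.6% and 41.6% S, and 52.1% and 46.5% G2/M. Hes1 was at 174 CPM in WT and 225 in cKO among S-phase cells and at 160 and 195 among G2/M cells, but at 81.1 and 62.5 among G1 cells, a log2 ratio of −0.38 (−0.73 to −0.024) there. Hes5 was lower in cKO in each phase: 209 and 163 in G1, 252 and 201 in S, and 159 and 138 in G2/M.

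The G1 cells were also those with the most Hes6, 263 in WT and 318 in cKO, against 102 and 99.1 in S. They held more of the IP markers than the other APs, with a summed level of 2517 CPM in WT and 3358 in cKO, against 650 and 583 in S and 576 and 542 in G2/M. Their median depth was 11998 and 11613 UMIs. The part of these markers in the G1 ratio of Hes1 was not tested. With the 3 phases weighted equally, the log2 ratio of Hes1 over APs was 0.22.

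**Figure D4:**
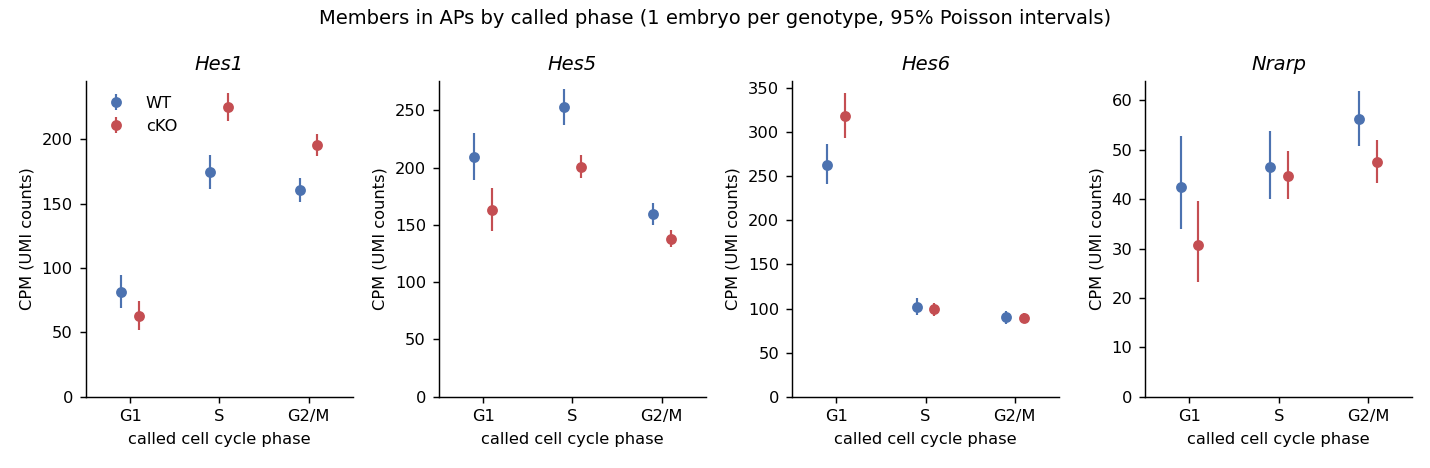
Levels of Hes1, Hes5, Hes6 and Nrarp in CPM (y axis, from 0) in APs called G1, S or G2/M, for the WT (blue) and the cKO (red) embryo; bars are 95% Poisson intervals. Hes1 is higher in cKO in S (225 against 174) and G2/M (195 against 160) but not in G1 (62.5 against 81.1), Hes5 is lower in cKO in all 3, and Hes6 is highest in G1.

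Of the 6 members with at least 50 UMIs in IPs, only Hes1 was past 1.5-fold, beside 4.41% of the 11429 genes with as many UMIs. Hes6 was at 357 in WT and 388 CPM in cKO (log2 ratio 0.12, 0.048 to 0.20). Nrarp was at 29.1 and 38.1 (0.39, 0.14 to 0.65), Hes5 at 20.5 and 26.2 (0.35, 0.045 to 0.66), and Dtx1 at 15.6 and 20.2 (0.37, 0.020 to 0.72). Hes1 was at 3.88 and 6.73 (0.80, 0.13 to 1.49), which rests on only 30 UMIs in WT and 54 in cKO. Of all these genes 98.7% had a lower ratio than Hes1, 93.8% than Nrarp, 93.1% than Dtx1, 92.4% than Hes5 and 73.8% than Hes6. Hey1 was at 13.6 and 14.7, with an interval that held 0, and Hey2 had 17 and 5 UMIs. A higher Hes1 ratio was not particular to IPs among cells with little Hes1. It was 0.88 (0.29 to 1.49) in unnamed cells. In GE-derived cells (0.80) and migrating neurons (0.55) it was positive with intervals that held 0, and in immature neurons it was −0.14.

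In migrating neurons Dtx1 was at 50.9 in WT and 61.8 in cKO (log2 ratio 0.28, 0.17 to 0.39), Hes5 at 5.66 and 7.37 (0.38, 0.056 to 0.71), and Hes6 at 130 and 139 (0.099, 0.029 to 0.17). In immature neurons the interval of the ratio held 0 for Hes1, Hes5, Hes6, Hey1, Nrarp and Dtx1.

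Some ratios in classes outside the Emx1 lineage were larger than those of the same genes in APs. In GE-derived cells Hes5 was at 18.4 in WT and 11.3 CPM in cKO (log2 ratio −0.71, −1.02 to −0.40), and in the GE cluster led by genes such as Gsx2 it was at 45.5 and 17.5. In endothelial cells Hes1 was at 232 and 156 (−0.57, −0.85 to −0.29), and in pericytes at 244 and 163 (−0.58, −1.15 to −0.025), both opposite to APs. In pericytes Heyl was at 197 and 285 (0.53, 0.039 to 1.03), Nrarp at 120 and 61.2 (−0.98, −1.93 to −0.10), and Hey2 had 27 UMIs in WT and 3 in cKO.

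Hes5 had 16 UMIs in 33 cKO endothelial cells against none in 24 WT cells. Neurog2, a gene of neural progenitors, had 58 UMIs in the same cKO cells and 7 in the WT cells. Neuron markers went the other way in these cells, with a summed level of 776 CPM in WT and 389 in cKO and intervals below 0 for 7 of the 8 genes with at least 50 UMIs, and AP markers summed to 2007 and 1933 CPM. The median depth of endothelial cells was 39431 UMIs in WT and 22067 in cKO, and the share of any neural RNA in these values was not tested. For the 8 immediate early genes with at least 50 UMIs in endothelial cells the intervals lay below 0, among them Fos at 221 and 53.3 CPM.

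**Figure D5:**
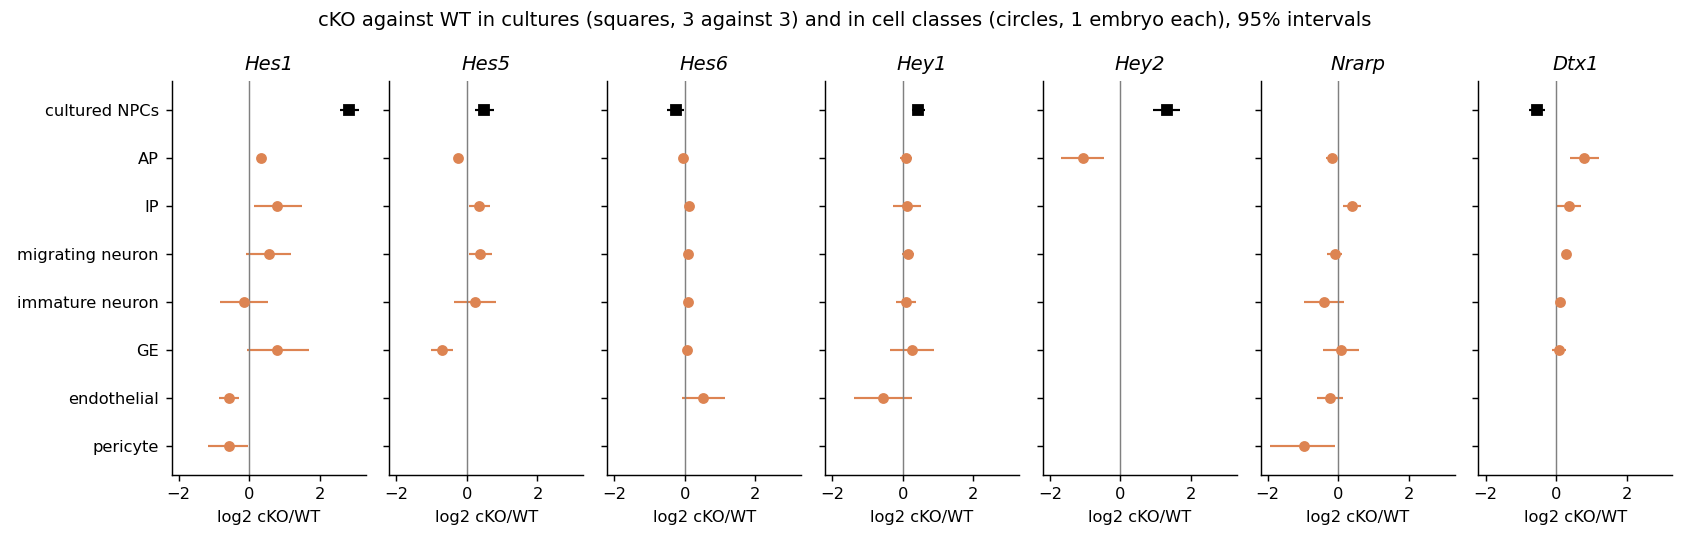
Log2 ratio of cKO to WT (x axis) for 7 members in cultured NPCs (squares, 3 cultures against 3) and in 7 cell classes (circles, 1 embryo each, at least 50 UMIs); bars are 95% intervals, for circles of counting error only. Hes1 is above 0 in cultures (2.84) and APs (0.34) and below 0 in endothelial cells (−0.57), and Hey2 and Dtx1 lie on opposite sides of 0 in cultures and APs.

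Set beside the cultures, Hes1 had the same direction in APs with a far smaller ratio, 0.34 against 2.84, and Hey1 gave 0.10 against 0.45. The AP value of Hey1 has an interval that holds 0, and it was 0.26 when thinned and −0.017 with the phases weighted equally. Hes5, Hey2 and Dtx1 had opposite directions: 0.49, 1.31 and −0.54 in cultures and −0.25, −1.06 and 0.80 in APs. The difference between cultures and embryos was not tested, since the cultures were counted over whole gene spans and the embryos by UMIs near the 3′ end. Of the ligands that rose in cultures, Dll1 was at 26.2 CPM in WT and 21.5 in cKO APs, which gives −0.28 on the log2 scale (−0.49 to −0.070). Dll3 (0.18) and Jag1 (0.16) had positive log2 ratios in APs, with intervals that held 0. Of the 4 proneural genes with at least 50 UMIs in APs, the intervals of 2 lay above 0 and that of 1 below. Those above 0 were Neurog2, with a log2 ratio of 0.12, and Neurod1, with 0.87 (0.60 to 1.14). Immediate early genes, all higher in cKO cultures, were mixed in APs: of 9 with at least 50 UMIs, the intervals of 6 lay below 0, among them Fos at 64.2 and 31.0 CPM in WT and cKO. Arc lay above 0, with 16 and 55 UMIs (1.22, 0.39 to 2.12), and Dusp1 (0.15) and Nr4a1 (0.23) had intervals that held 0.

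Among the genes most like Hes1 over the 27 clusters of the WT embryo, by Pearson's r of log2(CPM + 1) taken over genes with at least 200 UMIs, were Mfge8 (r = 0.91), Ajuba (0.91), Trip6 (0.90) and Bhlhe40 (0.90). In the cKO embryo these genes gave 0.88, 0.90, 0.87 and 0.86. For Hes5 they were Sox3 (0.88), Acsbg1 (0.88), Peg12 (0.87), Gm4675 (0.86) and Gm19554 (0.86), with 0.78 to 0.86 in cKO. For Hes6 they were Sap30 (0.92), Apoo (0.91), Vezf1 (0.91), Med22 (0.89) and 3010003L21Rik (0.89), with 0.56 to 0.80 in cKO.

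Among the members, taken without the limit on UMIs, Hes1 gave r = 0.79 in WT and 0.80 in cKO with Hey2, 0.69 and 0.62 with Nrarp, and −0.56 and −0.37 with Dtx1. Hey2 had 168 UMIs in WT, so its values rest on few counts. Hes1 and Hes5 gave 0.29 in WT and 0.63 in cKO, and Hes5 had no UMI in WT endothelial cells and pericytes, where Hes1 was highest. All 27 clusters come from 1 library each and differ in depth, so these values describe that library.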

How the data were processed

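The authors aligned bulk reads to mm10 with HISAT2 and deposited raw counts per gene for 3 WT and 3 cKO cultures. Counting tool, annotation and strand setting: not given in the sources used here. For scRNA-seq they deposited unnormalized UMI counts for each gene and barcode, written by Cell Ranger 7.0.0 per the file headers. The submitters' processing notes also name DESeq2 and Seurat. The LACE-seq samples were not analysed here.

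Counts were tested with edgeR 4.0.16 in R 4.3.3: filterByExpr, TMM scaling, and the quasi-likelihood F test in its robust form, adjusted after Benjamini-Hochberg with a threshold of 0.05. In cultures, CPM of single genes use TMM library sizes, whereas summed levels of gene lists use the plain library totals. Alternatives were other scalings and filters, DESeq2 1.42.0, replicate and sex terms, and each culture left out. An exact permutation test of 3 against 3 cannot go below 0.1. Cells with 200 or more genes and no more than 10% of mitochondrial UMIs were clustered with Seurat 5.3.0 (30 principal components, 20 neighbors, resolution 0.8), leaving out the members, other Notch genes, genes that the study reports, sex genes and mitochondrial genes. Clusters were named from fixed markers. Doublets called by Scrublet (284 in WT, 446 in cKO) were removed only as an alternative. Gene positions were compared with GENCODE M21.

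All 8 members and the genes of the lists were to be named, with the 5 most alike genes for Hes1, Hes5 and Hes6. Members and lists were chosen with earlier results of these data known. Some genes of these lists are not reported here. The tests were tried on simulated data.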

Additional observations from a re-analysis of the deposited data

Results flagged for a closer look

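Several members had opposite directions in different cells or experiments, with each interval on its own side of 0. None of these differences was itself tested. The log2 ratio of Hes1 was 0.34 in APs, against −0.57 in endothelial cells (24 WT and 33 cKO cells), −0.58 in pericytes (27 and 18 cells) and −0.38 in APs called G1. The ratio of Hes5 was −0.25 in APs, against 0.49 in cultured NPCs, 0.35 in IPs and 0.38 in migrating neurons. Hey2 gave −1.06 in APs and 1.31 in cultured NPCs. Nrarp gave −0.19 in APs and 0.39 in IPs. Dtx1 gave 0.80 in APs and −0.54 in cultured NPCs.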

How the results depend on the processing

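In cultures, Hes1, Hey1, Hey2 and Dtx1 kept their direction and passed under all 13 alternatives (other scalings, filters, DESeq2, sex or replicate terms, each culture left out). Hes5 failed only without WT culture 1. Hes6 passed without the low-count filter (adjusted p = 0.0432), with a sex term (0.0406) or a replicate block (0.0235), or without WT culture 1 (0.00711, all edgeR). Leaving out 1 culture gave 4108 to 6345 genes and 5 to 5 members called. Cultures with the same number gave correlations of 0.33, −0.017 and 0.072, and those with different numbers gave −0.37 to 0.36. With so few cultures, these values cannot decide whether the numbers pair them. With the replicate block, 6405 genes and 6 members passed. In APs, thinning moved Hes1 to 0.52 and Hes5 to −0.17, and equal phase weights moved Hes1 to 0.22; the cause was not tested. Thinned, Hes6 gave −0.15, Nrarp −0.028 and Dtx1 0.19, and weighted Hes6 gave 0.16. At resolution 0.4 Dtx1 gave 0.46. Leaving out the shallow AP cluster, chosen after seeing the data, gave 0.34 for Hes1 and −0.27 for Hes5. The class with the highest level stayed the same for 7 of 7 members in each alternative that gave one; equal phase weights give no level per class. Low counts limit Heyl in cultures and Hey2 and Dtx1 in APs.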
